A study of Homo sapiens with 6 samples.

Results

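The genes described here are 10 secreted or shed growth factors and cytokines: MDK, PTN, VEGFA, VEGFB, VEGFC, PDGFA, PDGFB, GDF15, HBEGF and AREG. They were chosen by symbol, with their fold changes already known, and all 10 have an entry among the 15243 genes of the comparison used here. The study read ribosome footprints, the short pieces of mRNA that translating ribosomes protect (Ribo-seq), in NCI-H1299, a human lung carcinoma cell line that lacks p53. Of the 6 samples, 3 were labelled shControl, which the design text calls puro, and 3 were labelled shALDH18A1, for a short hairpin RNA aimed at ALDH18A1, which encodes the proline synthesis enzyme P5CS. All of them were grown in serum-containing medium, and no further treatment is given. The question was how targeting P5CS, studied in this series as an RNA-binding protein, alters the translation of mRNAs. The hairpin's sequence, the number of hairpins and whether the samples came from separate cultures are not given, so the authors' p-values may measure a technical spread.

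Values per sample were not used here: each gene has a single mean normalized count and a single fold change on a log scale, together with a standard error (SE), a p-value and an adjusted p-value, so no spread between replicates can be shown. The sources used here do not say which group is the reference, nor whether footprints alone or their ratio to RNA were compared. Higher and lower therefore mean the sign in the authors' deposited table, with no direction between shALDH18A1 and shControl, and ± is the table's own SE. The base of the logarithm was taken as 2 from the column layout. A gene was called at an adjusted p under 0.05. The targeted gene ALDH18A1 stood at −0.19 ± 0.12 on that scale in the authors' deposited table and missed the threshold (adjusted p = 0.173). The mean count grows with transcript length, so it is used below as the amount of reads behind a value and not to compare levels between genes.

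Growth factors are secreted proteins that bind receptors on the same or on neighbouring cells. Midkine (MDK) and pleiotrophin (PTN) are a pair of related heparin-binding factors, made mainly in the embryo and again in many carcinomas. The vascular endothelial growth factors (VEGFs) and platelet-derived growth factors (PDGFs) are related dimers whose chains share a cystine knot fold, and they signal through receptor tyrosine kinases, in blood vessels, lymphatic vessels and connective tissue. HBEGF and AREG are made as membrane-anchored precursors, are cut free by metalloproteases and bind the epidermal growth factor receptor (EGFR). GDF15 is a distant member of the transforming growth factor beta family that is produced in many cells under stress.

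The 10 genes ran from strongly higher to not called. MDK and PTN were the highest, with log2 fold changes of 4.17 ± 0.20 and 3.26 ± 0.25 in the authors' deposited table, or 18.0-fold and 9.61-fold. GDF15 and VEGFC followed at 2.00 ± 0.20 and 1.68 ± 0.18 in the authors' deposited table, and PDGFB, VEGFB and PDGFA were higher by smaller amounts. VEGFA, HBEGF and AREG were not called. In all, 7 of the 10 were called higher, 0 lower and 3 not called in the authors' deposited table, where 58.4% of all genes were called, 28.9% higher and 29.4% lower. At an unadjusted p under 0.05 the counts were 8 higher and 1 lower in the authors' deposited table. No share of all genes was worked out at that threshold, and the shares above do not serve for it. The members were chosen with this contrast in view, so nothing is read from their share. Their median log2 fold change was 1.14, beside 0.02 over all genes in the authors' deposited table.

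**Figure D1:**
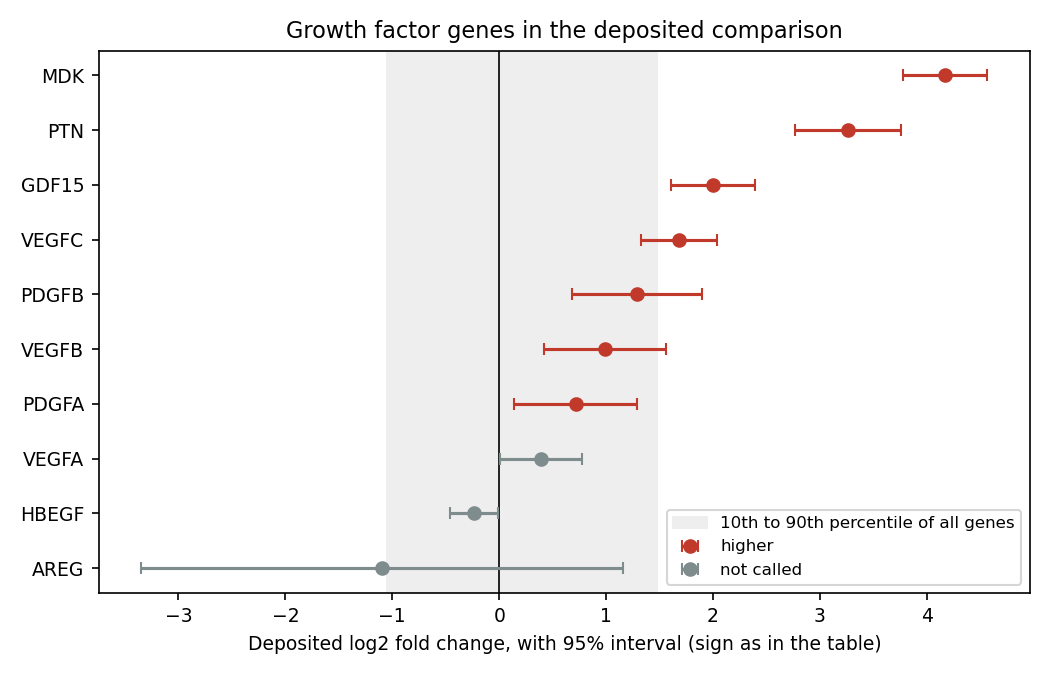
Each point is the deposited log2 fold change of a growth factor gene and each bar its 95% interval, with genes in order from highest to lowest and the band marking the 10th to 90th percentile of all 15243 genes (−1.05 to 1.48). The points run from 4.17 for MDK to −1.10 for AREG, whose interval is by far the widest.

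The 5′ flanks of 3 genes are shown because they span this order: PTN and GDF15 are the highest with a promoter window at hand, and AREG is the lowest. Windows run from 250 bases before to 50 bases after the annotated start, from RefSeq (GRCh38.p14), and 7 of the 10 genes were matched; MDK, VEGFA and PDGFB were not. Ribo-seq does not measure promoters, so the windows give context only. Capitals mark exact matches, on either strand, to any of 5 motifs. The core of the hypoxia response element was searched as ACGTG. An AP-1 site, which binds Fos and Jun factors, was searched as TGANTCA. A GC box, which binds Sp1, was searched as GGGCGG. The TATA box, which places the start of transcription, was searched as TATAAA. The cAMP response element was added after the windows were seen and was searched as TGACGTCA. No motif contains another.
PTN, chr7:137343684-137343983, - strand: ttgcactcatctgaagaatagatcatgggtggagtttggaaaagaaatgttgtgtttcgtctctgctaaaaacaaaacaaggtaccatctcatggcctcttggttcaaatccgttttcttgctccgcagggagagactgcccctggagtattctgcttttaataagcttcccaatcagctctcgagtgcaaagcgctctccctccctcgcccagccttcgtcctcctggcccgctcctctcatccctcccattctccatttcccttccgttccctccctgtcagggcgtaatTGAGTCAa
GDF15, chr19:18385908-18386207, + strand: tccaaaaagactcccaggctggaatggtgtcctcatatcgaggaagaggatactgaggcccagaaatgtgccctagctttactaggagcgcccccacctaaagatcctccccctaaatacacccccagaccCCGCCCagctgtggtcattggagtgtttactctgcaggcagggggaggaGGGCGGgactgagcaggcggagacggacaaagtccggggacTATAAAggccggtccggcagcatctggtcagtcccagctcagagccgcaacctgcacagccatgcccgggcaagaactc
AREG, chr4:74444886-74445185, + strand: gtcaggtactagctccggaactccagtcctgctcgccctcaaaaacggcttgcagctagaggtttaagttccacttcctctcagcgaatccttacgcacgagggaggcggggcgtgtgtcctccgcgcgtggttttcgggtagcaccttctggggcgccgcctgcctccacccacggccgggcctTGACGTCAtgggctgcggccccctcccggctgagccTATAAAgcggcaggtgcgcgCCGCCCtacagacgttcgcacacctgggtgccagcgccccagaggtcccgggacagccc

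These flanks differed in their letters. PTN had no GC box and no TATA box, a GC content of 50.3% and a single AP-1 match, TGAGTCA, 42 bases past the start, inside the transcribed part. GDF15 held a TATA box whose first base lies 29 bases before the start, as did AREG, with 2 GC boxes in GDF15 and 1 in AREG. AREG alone of the 7 held a cAMP response element, 65 bases before its start. Each of the 4 windows of PDGFA held between 1 and 5 GC boxes and no other motif. The windows of VEGFB, VEGFC and HBEGF had no TATA box, between 2 and 9 GC boxes and GC contents from 75.0% to 84.7%, and none of the 7 genes' windows held ACGTG. Among all 35116 windows, ACGTG occurred in 21.4%, the GC box in 45.0%, the TATA box in 11.5%, the AP-1 letters in 7.71% and the cAMP response element in 1.85%. Genes called higher and genes not called both occurred with and without a TATA box, and an exact match is not shown to be a site that is used.

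MDK encodes midkine, on chromosome 11 (46380784 to 46383837 in GRCh38), a small factor that promotes growth, survival and neurite extension. Its fold change was 4.17 with a 95% interval from 3.77 to 4.57 in the authors' deposited table, or from 13.7-fold to 23.7-fold. Read as a natural logarithm, the same entry of the authors' deposited table would be 64.7-fold. MDK ranked 38 of 15243 by fold change in the authors' deposited table, and among the 1524 genes of the same of 10 equal bins by mean count only 1 gene stood higher. The mean normalized count behind it was 604 in the authors' deposited table, the largest of the 10 genes. Its SE of 0.20 was 1.68 times the median SE of that bin (0.12) in the authors' deposited table. The annotated span of MDK shares 49 bases with CHRM4, a muscarinic receptor gene. CHRM4 was not called and had a mean normalized count of 3.39 and a value of 0.24 ± 0.70 in the authors' deposited table.

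PTN encodes pleiotrophin, the closest relative of midkine, from a long gene on chromosome 7 (137227341 to 137343733). Its fold change of 3.26 had an interval from 2.77 to 3.76 in the authors' deposited table, which ends just below the lower limit of MDK's. It ranked 144 by fold change in the authors' deposited table, with 11 of 1524 genes of similar mean count above it. The mean normalized count was 43.5 in the authors' deposited table, so MDK rested on far more reads than PTN. The PTN span shares 1290 bases with the long noncoding RNA gene LOC105375527 and 76 with a small nucleolar RNA gene. The pair thus held the top of the list at very different read support.

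Receptors and co-receptors of midkine and pleiotrophin were mostly called higher. Of 13 measured, 8 were called higher, 3 lower and 2 not called, with a median of 0.82 in the authors' deposited table, beside 28.9% and 29.4% of all genes higher and lower. LRP1, a large endocytic receptor that binds midkine, had the highest called value at 2.54 ± 0.12, followed by the heparan sulfate proteoglycan genes GPC2 at 2.25 ± 0.19 and SDC1 at 1.79 ± 0.15, in the authors' deposited table. The 3 members called lower were the syndecan genes SDC3 (−0.65 ± 0.21) and SDC4 (−0.41 ± 0.13) and NCL (−0.54 ± 0.17), which encodes nucleolin, in the authors' deposited table. The syndecans, co-receptors that carry heparan sulfate, were therefore split. PTPRZ1, the receptor phosphatase that pleiotrophin inhibits, was called higher at 0.82 ± 0.27 in the authors' deposited table; it falls outside the rule for named genes and was chosen after its value was seen.

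VEGFC, which drives the growth of lymphatic vessels, was the highest of the 3 VEGF genes. On chromosome 4 (176683538 to 176792922), it stood at 1.68 with an interval from 1.33 to 2.04 in the authors' deposited table, or 3.21-fold, on a mean normalized count of 86.8. The VEGFC span shares 22606 bases with the long noncoding RNA gene HAFML. VEGFB, a ligand of the receptor FLT1, on chromosome 11 (64234584 to 64239264), had a value of 0.99 ± 0.29 in the authors' deposited table and was called (adjusted p = 0.00154). Its SE was 1.94 times the median of genes of similar mean count in the authors' deposited table, and it lay just below 1 on the log2 scale, which the authors' own mark of up requires. The authors marked 5 of the 10 genes as up and 0 as down (MDK, PTN, GDF15, VEGFC and PDGFB) in the authors' deposited table, where those marks cover 15.2% and 9.24% of all genes. The marks are not a subset of the calls used here: DCN was marked up at an adjusted p of 0.0608 in the authors' deposited table. VEGFA, the main angiogenic factor, on chromosome 6 (43770211 to 43786487), had a value of 0.39 ± 0.20 in the authors' deposited table and was not called (adjusted p = 0.0782). The VEGFA interval, from 0.00350 to 0.77 in the authors' deposited table, allows at most a 1.71-fold change; intervals here are not adjusted for the number of genes. VEGFA and VEGFB had similar read support, with mean normalized counts of 154 and 174 in the authors' deposited table. The intervals of VEGFC and VEGFA did not overlap, whereas that of VEGFB, from 0.42 to 1.56 in the authors' deposited table, overlapped both.

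PDGFA and PDGFB form the homodimers and the heterodimer that act on fibroblasts, smooth muscle cells and pericytes. PDGFB, on chromosome 22 (39223359 to 39244982), was higher by 1.29 ± 0.31 in the authors' deposited table, or 2.44-fold. PDGFA, on chromosome 7 (497258 to 520700), was higher by 0.72 ± 0.29 in the authors' deposited table and lay closest to the threshold of the called genes (adjusted p = 0.0267). Both rested on few reads, with mean normalized counts of 25.8 and 29.5 in the authors' deposited table, and their intervals overlapped widely. Genes of similar mean count had a median of 0.31 in the authors' deposited table, and after subtracting it PDGFA was no longer called, at 0.41 on the log2 scale. The PDGFA span overlaps the long noncoding RNA genes PDGFA-DT and LOC105379749 by 310 and 8185 bases, with no value used here for either.

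The other ligands of the VEGF and PDGF families pointed the same way. All 4 measured had positive values, 3 of them called, with a median of 1.73 in the authors' deposited table. Of all genes there, 28.9% were called higher and 29.4% lower, with a median of 0.02. Whether these 4 differ from all genes was not tested. PDGFD (1.90 ± 0.35), PDGFC (1.55 ± 0.13) and PGF (1.42 ± 0.38), the placental growth factor gene, were called higher in the authors' deposited table. VEGFD was listed at 1.99 ± 1.51 and not called, at a mean normalized count of 1.04, in the authors' deposited table.

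Of 8 VEGF and PDGF receptors and co-receptors, 5 were called higher, 1 lower and 2 not called, with a median of 1.73 in the authors' deposited table. The shares over all genes were 28.9% higher and 29.4% lower. NRP2, a co-receptor of VEGFC, was higher by 3.26 ± 0.20 in the authors' deposited table, and PDGFRL, which encodes a receptor-like protein without a kinase, by 2.25 ± 0.15. FLT1, the receptor of VEGFA and VEGFB, was listed at 3.69 ± 1.45 (adjusted p = 0.0207) in the authors' deposited table, but at a mean normalized count of 2.22 this value is imprecise. KDR, the main signalling receptor of VEGFA, was the only one called lower, at −1.72 ± 0.28 in the authors' deposited table. FLT4, the receptor of VEGFC (1.88 ± 0.49), and PDGFRB (1.59 ± 0.30) were called higher in the authors' deposited table. FLT4 had few reads, with a mean normalized count of 6.57 in the authors' deposited table. Both genes fall outside the rule for named genes and were chosen after their values were seen.

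GDF15, on chromosome 19 (18386158 to 18389176), was the third highest of the 10 genes. Its log2 fold change was 2.00 with an interval from 1.60 to 2.39 in the authors' deposited table, with 60.1 as mean normalized count. Its SE was 0.914 times the median of genes of similar mean count in the authors' deposited table, so this value was as precise as its read support gives. The intervals of GDF15 and VEGFC overlapped. The hairpin gene MIR3189 lies inside the GDF15 span and shares 73 bases with it. The GDF15 receptor genes GFRAL and RET were not analysed here.

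HBEGF and AREG, the pair of EGFR ligands, were the only members with negative values and neither was called. HBEGF, a heparin-binding ligand that also serves as the diphtheria toxin receptor, on chromosome 5 (140332843 to 140346603), stood at −0.23 ± 0.12 in the authors' deposited table (adjusted p = 0.0696). With a mean normalized count of 267, its interval from −0.46 to −0.00823 in the authors' deposited table was the narrowest of the 10 genes. AREG, the gene of amphiregulin on chromosome 4 (74445136 to 74455005), was listed at −1.10 ± 1.15 in the authors' deposited table (adjusted p = 0.430). Its mean normalized count of 4.20 in the authors' deposited table leaves an interval from −3.35 to 1.16, so neither an increase of 2.23-fold nor a much larger decrease can be told from no change at this depth.

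Other EGF family ligands were either called higher or not called. Of 6 measured, 3 were called higher, 0 lower and 3 not called, with a median of 0.73 in the authors' deposited table. Over all genes, 28.9% were called higher and 29.4% lower. At an unadjusted p under 0.05 the counts for these 6 were also 3 and 0, with no share of all genes worked out at that threshold. The neuregulin genes NRG1 (1.36 ± 0.17) and NRG2 (1.24 ± 0.12), whose products bind ERBB3 and ERBB4, and TGFA (1.21 ± 0.37), another EGFR ligand, were those called higher in the authors' deposited table. Of the receptors, EGFR was higher by 2.21 ± 0.13, ERBB3 by 1.07 ± 0.19 and ERBB2, the partner receptor with no ligand of its own, by 0.98 ± 0.12 in the authors' deposited table. ERBB4, the fourth receptor, had a value of −0.64 ± 0.60 in the authors' deposited table without being called; it was chosen once its value was known.

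**Figure D2:**
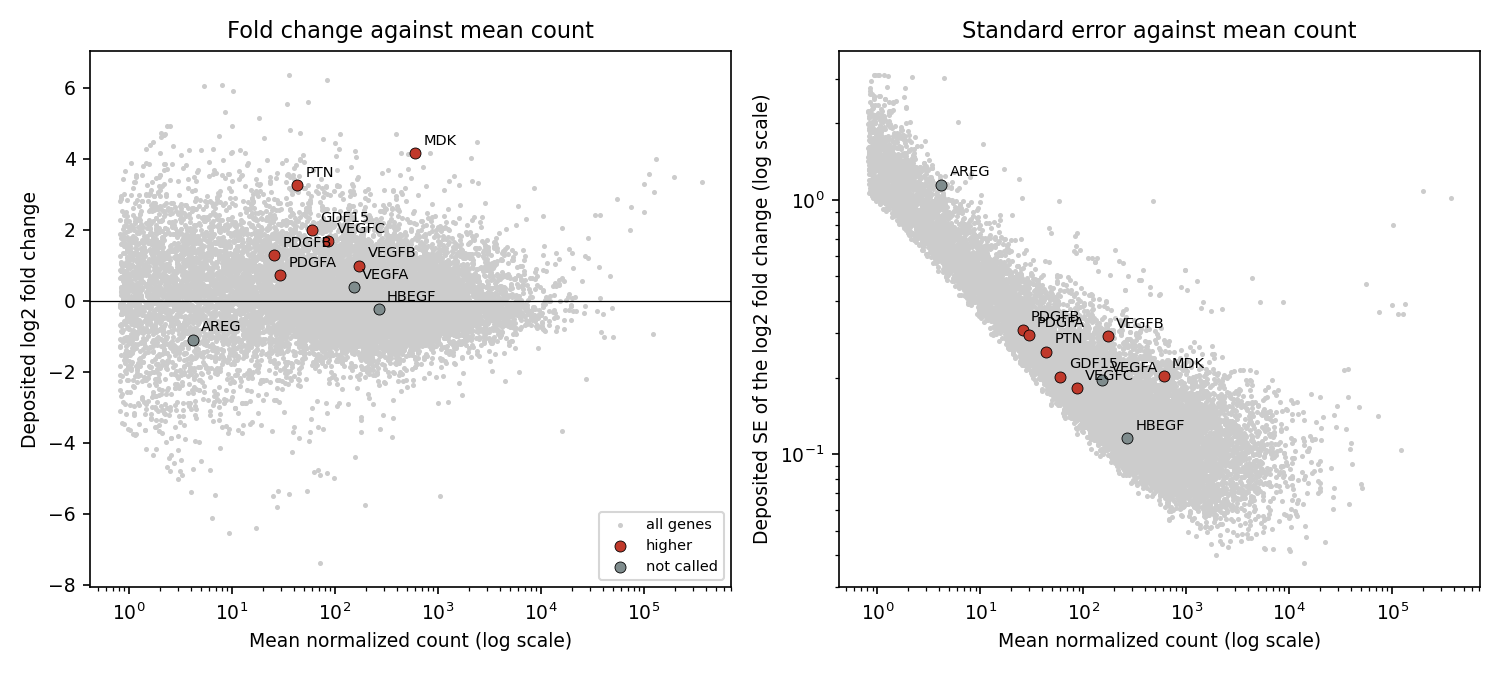
The left panel plots the deposited log2 fold change and the right panel its SE against the mean normalized count (log scale) for all genes (grey) and the 10 growth factors (red, called higher; dark grey, not called). MDK lies at the upper edge of the genes near its count of 604, and AREG at a count of 4.20 has the largest SE of the 10, 1.15.

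MDK, with the largest mean normalized count of the 10 genes, had an SE of 0.20, above the 0.12 of HBEGF, in the authors' deposited table. The mean count pools both groups, and what sets the SE was not tested. Of the 10 genes, 6 had a mean normalized count below the table's median of 150.2 in the authors' deposited table: PTN, GDF15, VEGFC, PDGFB, PDGFA and AREG. In the bin of genes that holds AREG 37.6% were called, against 72.3% in that of MDK, in the authors' deposited table. The 5 genes MDK, PTN, VEGFB, VEGFA and AREG, had an SE above the median of their bin in the authors' deposited table. In the order by fold change, the neighbours MDK and PTN, PTN and GDF15, and VEGFA and HBEGF had intervals that did not overlap. All neighbours between GDF15 and VEGFA had overlapping intervals, as did HBEGF and AREG, so the order of these neighbours is not settled. Genes further apart could be separate: the interval of GDF15 began at 1.60, above the end of VEGFB's at 1.56, in the authors' deposited table.

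Genes for the release and processing of growth factors were mostly higher, by small amounts. Of 16 measured genes for shedding, furin-type processing and release from the matrix, 11 were called higher, 1 lower and 4 not called, with a median of 0.66 in the authors' deposited table, beside 28.9% and 29.4% of all genes. The proprotein convertase genes PCSK6 (1.39 ± 0.62) and PCSK7 (1.25 ± 0.13) and the heparanase gene HPSE (0.92 ± 0.18) had the highest called values in the authors' deposited table. PCSK6 had a mean normalized count of only 4.56 and lay near the threshold (adjusted p = 0.0416) in the authors' deposited table. ADAM12, a metalloprotease that can shed HBEGF, was called lower at −0.92 ± 0.24 in the authors' deposited table. ADAM17, the principal sheddase of AREG and HBEGF, had a value of 0.07 ± 0.13 in the authors' deposited table without being called; it was chosen once its value was known.

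**Figure D3:**
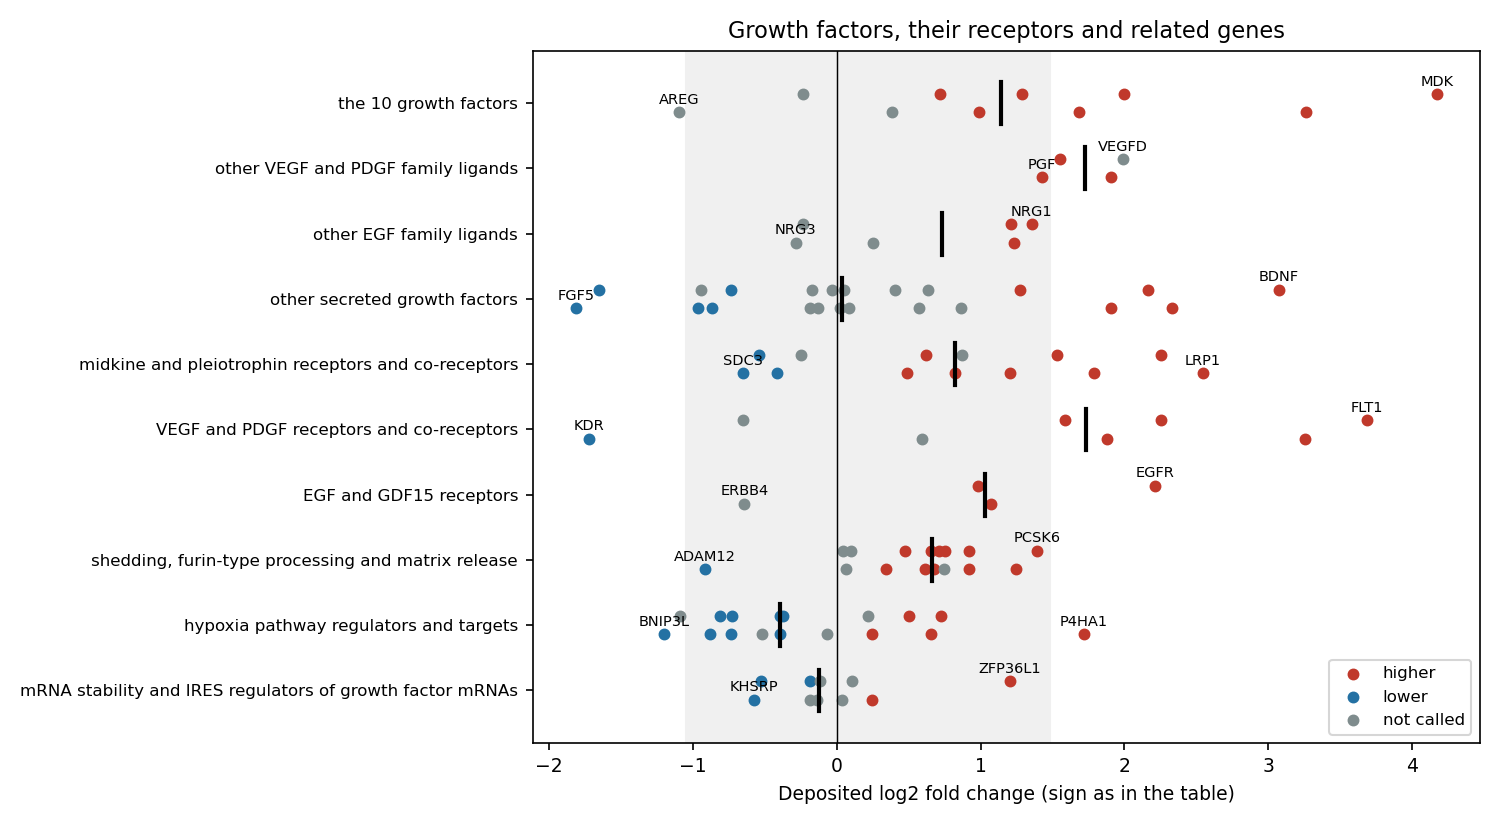
Each point is the deposited log2 fold change of a gene, in rows by gene list, coloured by its call; vertical ticks are medians, the band is the 10th to 90th percentile of all genes and the lowest and highest gene of each row are named. The 10 growth factors have a median of 1.14, and the row of other secreted growth factors is centred near 0 with a median of 0.04.

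Secreted growth factors of other families did not lean one way. Of 22 measured, 5 were called higher, 5 lower and 12 not called, with a median of 0.04 in the authors' deposited table. Over all genes, 28.9% were called higher and 29.4% lower. The neurotrophin gene BDNF (3.07 ± 0.24), GDF11, of the transforming growth factor beta family (2.33 ± 0.21), and the neurturin gene NRTN (2.16 ± 0.48) were the highest of those called in the authors' deposited table. NRTN rested on few reads, with a mean normalized count of 6.47 in the authors' deposited table. FGF5 (−1.81 ± 0.26), the macrophage growth factor gene CSF1 (−1.65 ± 0.22) and FGF1 (−0.96 ± 0.17) were the lowest in the authors' deposited table. Whether the 10 genes differ from these was not tested, since the 10 were chosen with their values known.

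VEGFA is a textbook target of the hypoxia-inducible factors, which switch on genes when oxygen is low. Of 17 measured hypoxia regulators and targets, 5 were called higher, 8 lower and 4 not called, with a median of −0.39 in the authors' deposited table. The share called higher, 29.4%, was near the 28.9% of all genes in the authors' deposited table. The 8 of 17 called lower stood beside 29.4% of all genes, and the median beside 0.02 over all genes, in the authors' deposited table. Whether the list differs from all genes was not tested. The prolyl hydroxylase genes of collagen P4HA1 (1.72 ± 0.15) and P4HA2 (0.72 ± 0.10) and the vasodilator peptide gene ADM (0.65 ± 0.16) had the highest values in the authors' deposited table. The mitophagy receptor gene BNIP3L (−1.20 ± 0.08), the histone demethylase gene KDM3A (−0.88 ± 0.07) and HIF1AN, which encodes an inhibitor of HIF1A (−0.81 ± 0.09), had the lowest called values in the authors' deposited table. HIF1A itself, with 0.24 ± 0.09 in the authors' deposited table, was called higher; it was chosen once its value was known.

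Proteins that bind AU-rich or internal ribosome entry elements, some of which act on VEGFA mRNA, were also measured. Of 10, 2 were called higher, 3 lower and 5 not called, with a median of −0.13 in the authors' deposited table. The shares over all genes were 28.9% higher and 29.4% lower. ZFP36L1, which promotes decay of AU-rich mRNAs including VEGFA in mouse embryos, was called higher at 1.20 ± 0.09 and TIAL1 at 0.24 ± 0.07 in the authors' deposited table. KHSRP (−0.57 ± 0.12), PTBP1 (−0.53 ± 0.09) and HNRNPL (−0.18 ± 0.07), which binds the VEGFA 3′ end, were called lower in the authors' deposited table.

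**Figure D4:**
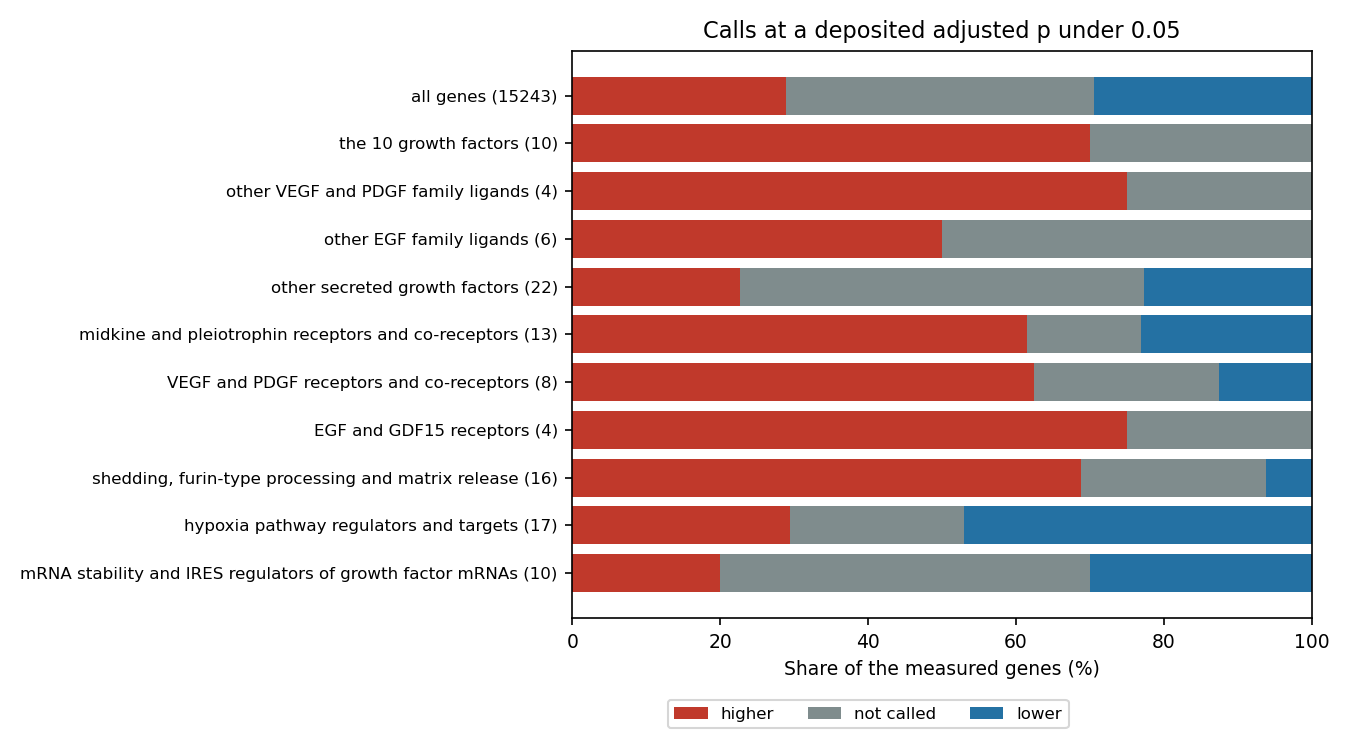
Bars give the share of measured genes called higher, not called and called lower in each gene list, with the number measured in brackets and all 15243 genes on top. Of all genes 28.9% were called higher, against 7 of the 10 growth factors, which were chosen with these values known.

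The labelled cell type was set against markers. Of 13 lung and epithelial markers, 6 were measured: the simple epithelial keratin genes KRT8 and KRT18 had mean normalized counts of 6396 and 6869 in the authors' deposited table. NKX2-1, the lung lineage factor (3.24), the epithelial adhesion genes EPCAM (11.4) and CDH1 (1.95) and KRT7 (5.32) had few reads, with a table median of 150.2, in the authors' deposited table. The mesenchymal markers VIM, CDH2 and FN1 had counts of 22046, 1815 and 876 in the authors' deposited table. The 4 endothelial markers PECAM1, CDH5, VWF and CLDN5 had counts from 1.56 to 13.2 in the authors' deposited table. The leukocyte marker CD14 stood at 2.92 and the fibroblast markers COL1A1, COL1A2 and DCN at 26.9, 3.25 and 5.18 in the authors' deposited table. Of all 17 markers measured, 4 were called higher, 3 lower and 10 not called in the authors' deposited table. Over all genes, 28.9% were called higher and 29.4% lower. Those called higher were KRT8 (0.41 ± 0.08), KRT18 (0.76 ± 0.10), FN1 (1.20 ± 0.10) and CD14 (1.92 ± 0.73) in the authors' deposited table. Those called lower were KRT7 (−1.18 ± 0.48), VIM (−0.28 ± 0.04) and CDH2 (−0.26 ± 0.10) in the authors' deposited table. These counts show which markers have reads and are not levels to be compared between genes. The markers' part in the growth factor values was not tested.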

How the data were processed

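Footprints were sequenced in 3 shControl and 3 shALDH18A1 samples. The submitters' processing notes name fastp 0.23.2, STAR 2.7.10a, featureCounts and build hg38. The role of each, the annotation, use of strand, footprint lengths and any removal of ribosomal RNA are not stated there; counting without strand would mix the reads of overlapping genes. The authors deposited a finished comparison. Its mean count is a normalized signal, its fold change and SE are log values by the deposited headers, which name no base and were taken as log2 from the column layout, its statistic is a score, and its p-value and adjusted p-value are the authors'. The score equals the fold change over its SE (largest difference 1.49e-13), and Benjamini-Hochberg adjustment gives back the adjusted p-value (largest difference 7.42e-06). Columns of samples left out numbered 0.

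A symbol with 2 entries kept that of the smaller p, leaving 15243 of 15244. Intervals of 95% come from the SE and the normal quantile. Similar mean count means the same of 10 equal bins. Spans and promoter windows came from RefSeq (GRCh38.p14), matched by Entrez ID. The growth factors, lists and thresholds were chosen with earlier results of these data known. Named genes were the 10 growth factors, ALDH18A1, the markers and up to 3 called genes with the largest change each way per list, or all called ones where a list had at most 5. The planned count test needs values per sample and was not run, nor were the planned protein features. Alternatives were other thresholds, adjustments, centrings and the authors' own marks. The steps were tested on simulated data. Python 3.11.15 was used with pandas 2.3.3, numpy 2.4.6, matplotlib 3.10.9 and scipy 1.17.1. The depth of each library is unknown.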

Additional observations from a re-analysis of the deposited data

How the results depend on the processing

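MDK, PTN, GDF15 and VEGFC were called higher under every threshold, adjustment and centring tried, except that only MDK and VEGFB were called when the adjustment covered the genes whose mean count reached the median, where 4 of the 10 were tested. The count of 7 growth factors called higher ran to 6 at an adjusted p under 0.01 and with Benjamini-Yekutieli adjustment (PDGFA lost), 5 with a log2 fold change of at least 1 or by the authors' own marks, 4 with Bonferroni adjustment, 2 among abundant genes and 8 at an adjusted p under 0.1. The count called lower, 0, became 1 (HBEGF) at an adjusted p under 0.1 and with fold changes centred on the median. Over all genes, a log2 fold change of at least 1 left 2244 higher and 1367 lower, the authors' own marks 2310 and 1408, Bonferroni adjustment 2338 and 2366, and abundant genes alone 2390 and 3161. The 4411 higher and 4488 lower as deposited became 3763 and 3789 at an adjusted p under 0.01. They became 3527 and 3579 with Benjamini-Yekutieli adjustment. An adjusted p under 0.1 gave 4803 and 4857, and centring on the median 4328 and 4604. Centred on the median of genes of similar mean count, VEGFA was called higher (0.45) and PDGFA was not called (0.41). No sign changed under either centring. No paired analysis was possible because values per sample were not used here, and no replicate could be left out for the same reason. Low read support limits AREG, PDGFA and PDGFB.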
